A study of Homo sapiens with 3 samples.

Results

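In 3 intervals of human chromosome 6 that hold replication-dependent histone genes lay 0 of the 38 binding sites called for a DNA-binding mutant of Idax. The same intervals contained 28 of the 17089 called for wild-type Idax. The sites are peaks from chromatin immunoprecipitation followed by sequencing (ChIP-seq), given on the hg19 build. A peak counted as a member when it overlapped by 1 bp or more 1 of 3 intervals of chromosome 6 that hold histone genes: 26017000 to 26290000 (the first group, 273 kb), 27090000 to 27120000 (the second, 30 kb) and 27770000 to 27870000 (the third, 100 kb). Membership used positions alone and no measured value. The remainder of the 3 Mb block between 26000000 and 29000000, which holds transfer RNA (tRNA), butyrophilin and zinc finger genes, served as the comparison and held 0 mutant peaks and 120 wild-type peaks. The gene content of the intervals was taken as given, and no hg19 annotation was used here to check it.

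The study expressed c-Myc-tagged Idax in HEK293T cells, an established line derived from human embryonic kidney. There were 3 stable lines, transfected with the DNA-binding mutant Myc-IdaxDBM, with wild-type Myc-Idax or with an empty vector, and chromatin of each was collected with anti-c-Myc agarose. The design text describes 2 ChIP replicates per condition, but each tagged protein was represented by 1 peak list called over the empty-vector cells, which leaves no replicate error and no test between conditions. The number of reads is unknown, and so are the amount of tagged protein in each line and the number of copies of chromosome 6.

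Idax, the product of CXXC4, carries a zinc finger of the CXXC type, which recognises CpG that is not methylated. Replication-dependent histone genes supply the core histones H2A, H2B, H3 and H4 and the linker histone H1 that package newly copied DNA. They lie side by side as short genes without introns, are transcribed mainly in S phase, and their messages end in a stem-loop in place of a poly(A) tail. Many H2A and H2B genes stand head to head and share the DNA between them as a promoter.

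In the gene order of RefSeq (GRCh38.p14), 53 protein-coding histone genes fell into 3 runs in the stretch from H1-1 to TRIM27. Genes that come before H1-1 in that order were not counted. The first run, from H1-1 to H4C8, had 32, the second, from H2BC11 to H2AC12, had 5, and the third, from H2BC13 to H2BC17, had 16. By class they were 6 H1, 11 H2A, 14 H2B, 10 H3 and 12 H4 genes. Inside the runs lay 0 tRNA genes and 1 other protein-coding gene, HFE, an iron homeostasis gene. Outside the runs, up to TRIM27, lay 135 tRNA genes and 32 protein-coding genes, 13 of them with zinc finger symbols. Positions of that assembly were not carried over to hg19, so no peak was assigned to a gene.

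The promoters are shown because CpG is what a CXXC finger recognises. For each histone class the gene of median CpG count in the 300-base window is printed, the lower of the middle pair where the class has an even number. The same was done for the butyrophilins, immunoglobulin-like membrane proteins, and the 1 olfactory receptor gene with a promoter entry is added. Each line gives the 250 bases before the transcription start, read 5′ to 3′ on the gene's own strand, from RefSeq (GRCh38.p14), and capitals mark CpG. On that build, which must not be set against the hg19 peak positions, the H1-5 stretch is chr6:27867589-27867838, minus strand. The H2AC17 stretch is chr6:27893186-27893435, minus strand, and the H2BC10 stretch is chr6:26272681-26272930, plus strand. Those of H3C3 and H4C13 are chr6:26045134-26045383, plus strand, and chr6:27873535-27873784, minus strand. The stretch of BTN3A3 is chr6:26440254-26440503, plus strand, and that of OR2B6 is chr6:27956991-27957240, plus strand.
H1-5: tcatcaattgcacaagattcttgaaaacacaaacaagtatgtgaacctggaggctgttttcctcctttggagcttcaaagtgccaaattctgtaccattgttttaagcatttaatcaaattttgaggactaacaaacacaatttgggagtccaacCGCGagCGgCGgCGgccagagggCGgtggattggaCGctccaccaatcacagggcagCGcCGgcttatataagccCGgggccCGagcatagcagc
H2AC17: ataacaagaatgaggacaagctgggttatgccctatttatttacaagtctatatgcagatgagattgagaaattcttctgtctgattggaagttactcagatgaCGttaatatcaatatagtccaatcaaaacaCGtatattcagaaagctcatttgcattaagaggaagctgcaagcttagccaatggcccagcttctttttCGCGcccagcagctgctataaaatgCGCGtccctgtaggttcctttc
H2BC10: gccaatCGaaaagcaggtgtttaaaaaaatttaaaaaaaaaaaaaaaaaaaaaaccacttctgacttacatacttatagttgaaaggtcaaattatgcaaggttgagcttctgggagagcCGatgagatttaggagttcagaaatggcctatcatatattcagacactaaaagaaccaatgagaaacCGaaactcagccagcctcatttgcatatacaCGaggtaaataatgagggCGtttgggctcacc
H3C3: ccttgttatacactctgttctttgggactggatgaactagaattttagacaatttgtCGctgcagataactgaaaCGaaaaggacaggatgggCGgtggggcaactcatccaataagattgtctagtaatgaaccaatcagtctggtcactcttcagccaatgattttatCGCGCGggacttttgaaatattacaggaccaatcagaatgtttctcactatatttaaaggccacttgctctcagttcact
H4C13: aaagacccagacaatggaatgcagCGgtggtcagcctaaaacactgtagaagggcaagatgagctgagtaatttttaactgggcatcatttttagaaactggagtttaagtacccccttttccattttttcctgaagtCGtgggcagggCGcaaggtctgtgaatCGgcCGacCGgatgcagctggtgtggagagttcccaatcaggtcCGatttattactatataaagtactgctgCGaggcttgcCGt
BTN3A3: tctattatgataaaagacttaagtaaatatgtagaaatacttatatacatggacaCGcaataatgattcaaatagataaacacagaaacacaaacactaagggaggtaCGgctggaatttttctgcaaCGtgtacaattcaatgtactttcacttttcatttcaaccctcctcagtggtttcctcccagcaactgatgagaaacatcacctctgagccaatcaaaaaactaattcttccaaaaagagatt
OR2B6: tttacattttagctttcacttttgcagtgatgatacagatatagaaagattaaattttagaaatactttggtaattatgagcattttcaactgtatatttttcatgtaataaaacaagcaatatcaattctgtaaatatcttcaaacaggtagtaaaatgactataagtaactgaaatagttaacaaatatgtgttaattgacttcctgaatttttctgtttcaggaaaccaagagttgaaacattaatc

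The printed stretches held 11 CpG in H1-5, 6 in H2AC17, 5 in H2BC10, 6 in H3C3 and 9 in H4C13, against 3 in BTN3A3 and 0 in OR2B6. Both of these come from classes poor in CpG, and the zinc finger genes of the stretch, of which none is printed, were richer than the histone genes. Over the full window of 300 bases, which adds 50 bases after the start, 48 of the 53 histone genes had an entry. Their median CpG count was 9.5, from 3 in H2BC3 to 25 in H1-4, against 18 in the 25 other protein-coding genes of the stretch with an entry, 19.5 in the 10 zinc finger genes among them, 4 in the 4 butyrophilin genes and 22 in 15843 protein-coding genes of the genome. Histone promoters were also poor in G and C, with a median of 42.3%, against 55.3% in the other genes of the stretch and 62.7% genome-wide.

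Relative to base composition, CpG in the histone windows was near the genome-wide level. The ratio of CpG observed to CpG expected from the C and G present had a median of 0.74 in the histone windows (quartiles 0.60 and 0.91), against 0.71 in the other genes of the stretch (quartiles 0.43 and 0.92) and 0.76 genome-wide. A ratio of 0.6 or more was found in 37 of 48 histone windows (77.1%), against 16 of 25 others (64%) and 65.8% of all protein-coding genes. Butyrophilin windows had 0 of 4 at that level and zinc finger windows 9 of 10. The H4 class had the highest median ratio, 0.88 over 10 genes. The lowest were 0.66 over 8 H3 windows and 0.70 over 14 H2B windows. The order of these last classes depends on the H3C4 window. Its CpG count and ratio, 6 and 0.61, equal those of the H2AC7 window, since both share sequence with the window of H2BC7. By run, the median ratio was 0.68 in the first, 0.87 in the second and 0.91 in the third.

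**Figure D1:**
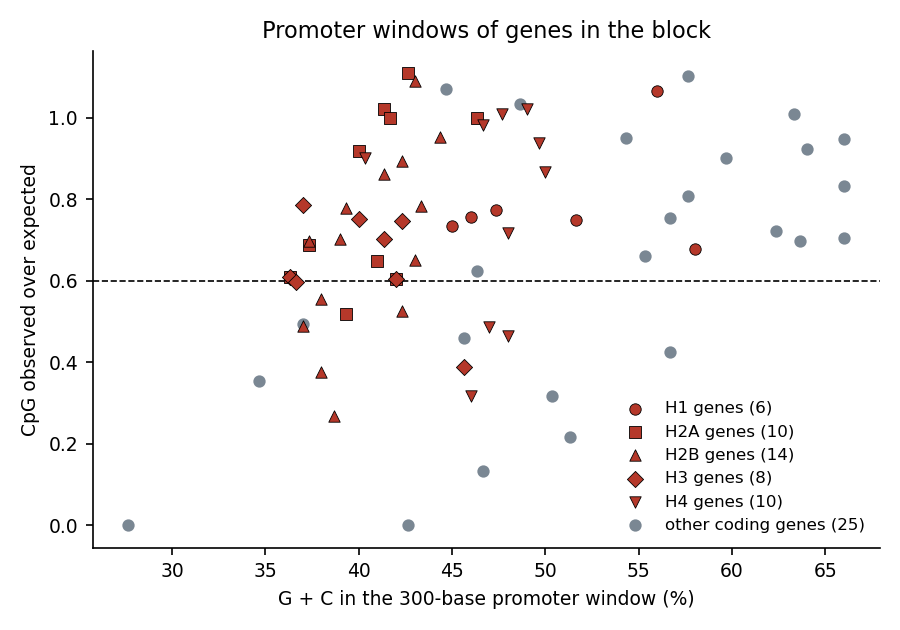
Each point is the 300-base promoter window of 1 protein-coding gene, with G + C content in percent on the horizontal axis and the ratio of observed to expected CpG on the vertical axis; red symbols are histone genes by class, grey points the 25 other genes, and the dashed line marks a ratio of 0.6. Histone windows lie at low G + C (median 42.3%) but mostly above the line (37 of 48).

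Histone windows also shared motifs known from histone promoters. The octamer ATTTGCAT, a site for the Oct-1 factor that acts in H2B promoters, was found on either strand in 11 of 14 H2B and 8 of 10 H2A windows, against 0 of 10 H4 windows, 0 of 25 other genes and 1.7% of all protein-coding genes. CCAAT stood in every H1, H2A, H2B and H3 window with an entry and in 3 of 10 H4 windows, against 10 of 25 other genes and 36.4% genome-wide. TATAAA was found in 31 of 48 histone windows (64.6%), against 1 of 25 others and 9.63% genome-wide. Both comparison sets are richer in G and C than the histone windows (medians 55.3% and 62.7%, against 42.3%), and base composition was not adjusted for. Butyrophilin windows, with a median of 41.3%, held CCAAT in 3 of 4, TATAAA in 1 of 4 and ATTTGCAT in 0 of 4. The counts of the classes are not independent, since 8 pairs of an H2A with an H2B gene had windows that shared 253 to 293 bases on opposite strands. H2BC7 likewise shared 278 bases with the window of H3C4, so that 1 of the 8 H3 windows holds mostly the sequence of an H2A and H2B pair. Motifs were counted separately and may share letters at their ends, and a match describes the sequence only.

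Wild-type peaks were dense in the block on average, in the histone groups as in the rest. The 3 groups together had 69.5 peaks per Mb (exact Poisson 95% interval 46.2 to 100.4), against 46.2 per Mb in the rest of the block (38.3 to 55.3), 5.22 per Mb on chromosome 6 outside the block (4.88 to 5.58) and 5.70 per Mb over the whole list. The groups thus held 28 peaks where the density of the whole list would give 2.3. The density in the histone groups was 1.50 times that in the rest of the block, with a 95% interval of 0.959 to 2.28 that includes 1, so the excess was not resolved from counting error. It was 13.3 times that of chromosome 6 outside the block (8.79 to 19.4), and the rest of the block itself stood at 8.85 times (7.25 to 10.7). Intervals of this kind cover counting error only and treat neighbouring peaks as independent.

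The ratio also depended on the surroundings and the score limit chosen. The 250 kb on each side of each group had 35.3 peaks per Mb, and the ratio against them was 1.97 (1.20 to 3.17). Of this sequence 0.233 Mb lies below the block and held 1 peak. The part inside the block, a comparison added after seeing the data, had 52 peaks or 41.0 per Mb, with a ratio of 1.69 (1.03 to 2.73). Among peaks with a score of 100 or more the ratio to the rest of the block was 1.71 (1.06 to 2.69). That limit kept 89.3% of members and 78.3% of the rest, so this ratio also carries the difference in score. Thus the interval left out 1 under these settings, while its lower end was under 1 in the comparison stated first. Against the rest of the block, the interval also included 1 with peaks less than 1 kb apart merged (0.945 to 2.33). The same held without the first group (0.669 to 2.94), without the second (0.903 to 2.25) and without the third (0.949 to 2.49).

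By group, the first had 19 peaks (69.6 per Mb, 41.9 to 108.7), the second 3 (100 per Mb, 20.6 to 292.2) and the third 6 (60.0 per Mb, 22.0 to 130.6). These intervals overlap widely. Set against the gene runs, the first group had 0.59 peaks per histone gene, the second 0.60 and the third 0.38, so there were fewer peaks than histone genes in each. The peaks were counted in hg19 intervals and the genes in GRCh38.p14 runs, and paired H2A and H2B genes share promoter sequence. These ratios therefore do not tell how many histone genes lack a peak. Peaks covered 11.4% of the bases in the histone groups, against 5.51% in the rest of the block and 0.701% of chromosome 6 outside it.

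**Figure D2:**
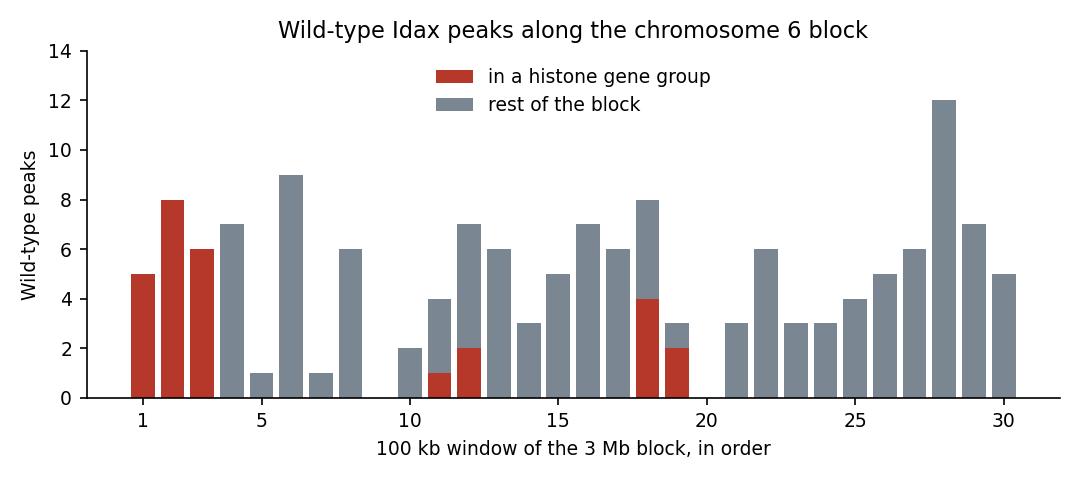
Bars give the number of wild-type peaks whose centre lies in each of 30 windows of 100 kb of the block, in order along the chromosome, with peaks of the histone groups in red and the remainder in grey. The 7 windows with histone sequence held 3 to 8 peaks, and the 23 without held 0 to 12.

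Windows of 100 kb show how the packing varied. The 4 windows with more than 50 kb of histone sequence held 3 to 8 peaks with a median of 5.5. The 23 windows without histone sequence held 0 to 12 with a median of 5, and 2 of them had none. With so few histone windows the ranges cannot be set against each other. The densest window of the block, with 12 peaks, lay outside the histone groups at 28700001 to 28800000. In bins of 10 kb, 22 of 40 histone bins (55%, exact Clopper-Pearson 95% interval 38.5 to 70.7) touched a peak, against 107 of 257 bins in the rest (41.6%, 35.5 to 47.9).

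The strongest member lay in the second group at chr6:27099301-27102153, with a score of 1236.99 over 2853 bp, and ranked 169 in the wild-type list. Scores were written by the peak caller with no stated scale, and were compared only among wild-type peaks. Next came a peak in the third group at chr6:27860306-27863744 (score 964.73, rank 478), the widest member at 3439 bp, and then the first peak of the first group at chr6:26020210-26022587 (score 958.19, rank 486). Each of the 3 groups thus held 1 of the 3 strongest members, all of them over 2000 bp wide.

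Peaks at chr6:26223675-26224856 (score 816.34 over 1182 bp) and chr6:26171779-26173321 (780.27 over 1543 bp) scored high for their width. In the third group a peak at chr6:27804388-27806677 scored 759.78 over 2290 bp. The remaining 4 of the 10 strongest members were in the first group, at chr6:26204086-26205875 (645.49), chr6:26033143-26034488 (568.57), chr6:26156172-26158808 (556.03) and chr6:26284993-26287027 (551.87). The last of these is also the last peak of its group.

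Of the 10 strongest peaks in the whole block, 7 were members, although members made up 18.9% of its peaks and 13.4% of its length. The strongest of the 3 others lay at chr6:27439932-27441400, with a score of 803.07. Among the 500 highest-ranked peaks of the wild-type list were 3 members and 0 peaks of the rest of the block, and among the first 2000 there were 7 and 3.

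**Figure D3:**
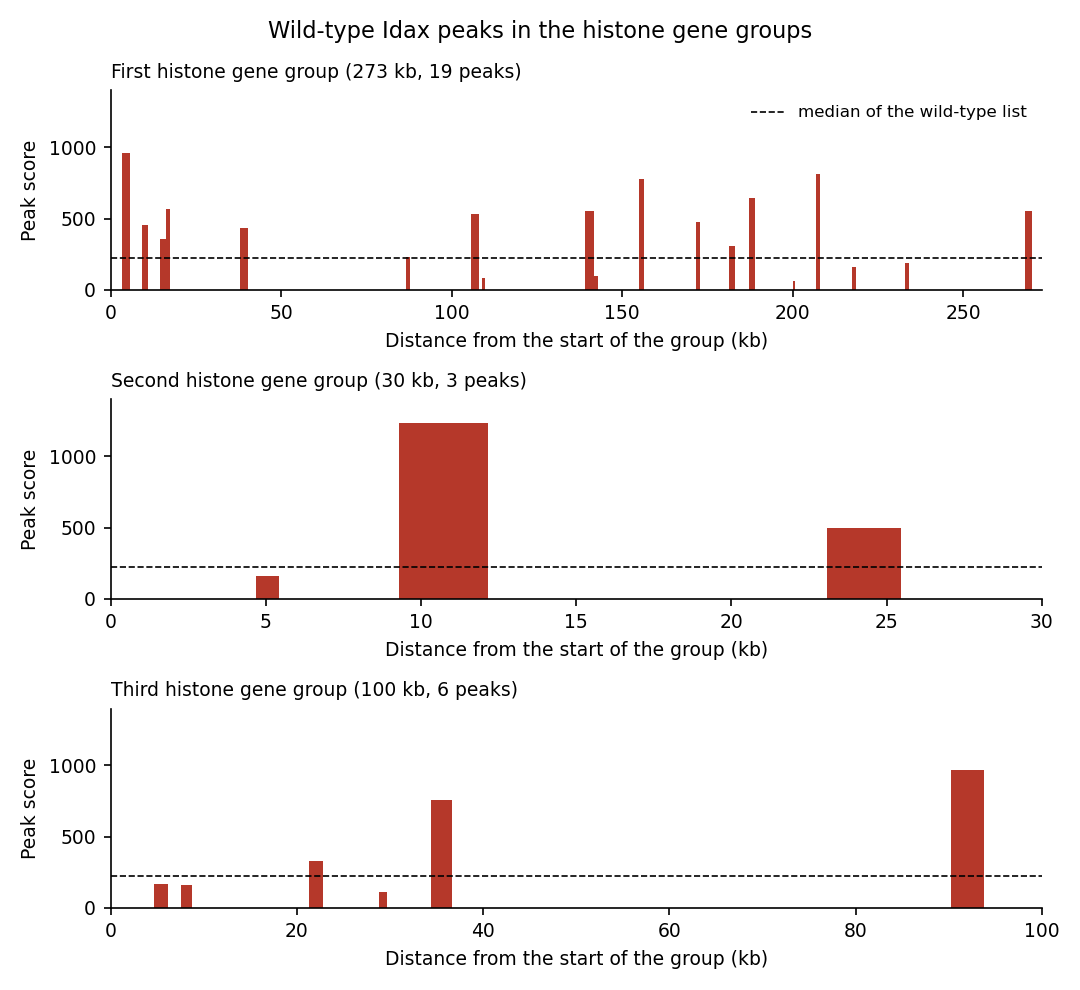
Each bar is 1 wild-type peak, drawn at its distance in kb from the start of its group with its true width and with its score as height; the dashed line is the median score of the wild-type list, 223. Strong peaks (up to 1236.99) alternate with weak ones (down to 64.41) in the longer groups, and 2 of the 3 peaks of the second group pass the line.

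Weak peaks were interspersed with these. The lowest scores were 64.41 at chr6:26217022-26217796, 82.53 at chr6:26125987-26126700 and 95.14 at chr6:26158822-26159842, all in the first group. The narrowest members were the second of these, at 714 bp, and the first peak of the second group at chr6:27094688-27095411, at 724 bp with a score of 159.21. The first peak of the third group, at chr6:27774652-27776175, scored 167.19 over 1524 bp and was the lowest member relative to list peaks of like width.

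Histone peaks were wide. Their median width was 1522 bp (quartiles 1139 and 2190 bp), against 1156 bp in the rest of the block (899 and 1449 bp) and 1116 bp in the whole list. The order-statistic 95% interval of the median was 1182 to 2035 bp in the histone groups and 1021 to 1253 bp in the rest, so that the intervals overlapped at their ends. Peaks of 2000 bp or more numbered 9 of 28 (32.1%, 15.9 to 52.4), against 5 of 120 in the rest (4.17%, 1.37 to 9.46) and 8.68% of the whole list. The median width was 1491 bp in the first group, 2392 bp in the second and 1522 bp in the third.

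Scores were higher as well. The median score was 447 in the histone groups (quartiles 166 and 588), against 172 in the rest of the block (109 and 274), 249 on chromosome 6 outside the block and 223 in the whole list. The intervals of the medians were 189 to 556 and 141 to 204, and again overlapped narrowly. Without the first group the median of the 9 remaining members was 330, a difference of 158 from the rest, against 275 with it. Of the members, 15 of 28 (53.6%, 33.9 to 72.5) scored at or above the upper quartile of the wild-type list, 408, against 9 of 120 in the rest (7.5%, 3.49 to 13.8) and 25% of the whole list by definition. A score of 500 or more was reached by 11 of 28 members (39.3%, 21.5 to 59.4), against 7 of 120 (5.83%, 2.38 to 11.6) and 17.1% of the list.

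At the lower end the sets were more alike. A score of 100 or more was found in 25 of 28 members (89.3%, 71.8 to 97.7), against 94 of 120 in the rest (78.3%, 69.9 to 85.3) and 77.9% of the list. At or below the list's lower quartile, with 25% of its peaks, fell 3 members (10.7%) and 31 peaks of the rest (25.8%). By group, the median score was 456 in the first, 494 among the 3 peaks of the second and 249 in the third.

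**Figure D4:**
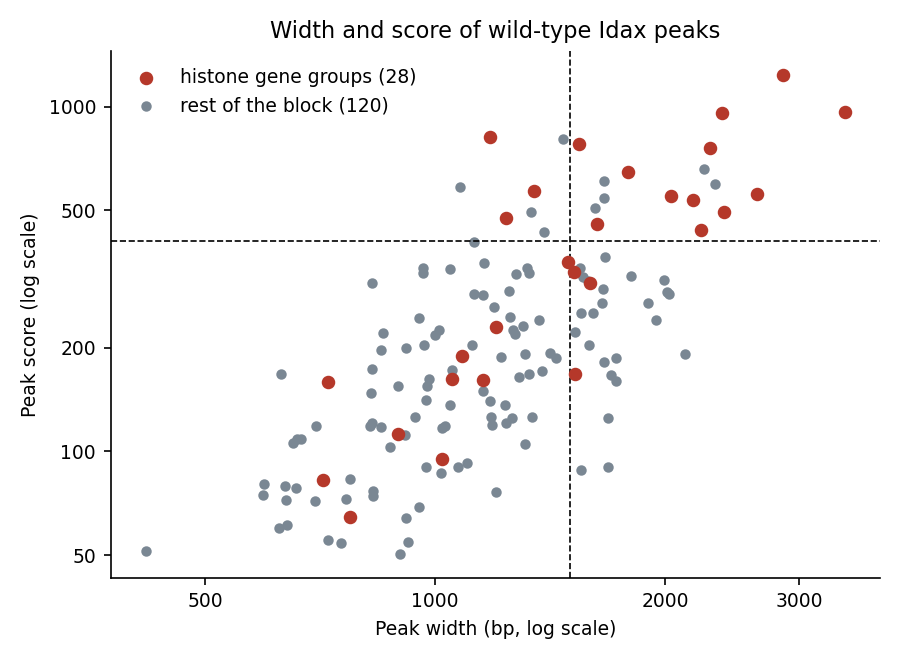
Each point is 1 wild-type peak, with its width in bp and its score on log axes; red points are the 28 members and grey points the 120 peaks of the rest of the block, and dashed lines mark the upper quartiles of the whole list. The upper right field holds 12 red and 5 grey points.

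Width and score went together among the members, with Pearson r = 0.77 and Spearman rho = 0.80 across 28 peaks of the same list, against rho = 0.62 across the 120 peaks of the rest and 0.77 across the list. Score and width both at or above the list's upper quartiles were seen in 12 of 28 members (42.9%), against 5 of 120 in the rest (4.17%) and 15.4% of the list. Among the 15 members at or above the upper quartile of width the median score was 552, against 270 in 29 such peaks of the rest and 473 in the list. The 13 narrower members had a median of 162, against 141 in the rest and 163 in the list.

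Held against list peaks within 10% of its width, each member could be placed separately. A member's score was on median 0.96 times the median of its width class (interval 0.85 to 1.36), against 0.79 times in the rest of the block (0.67 to 0.88). It exceeded that median in 13 of 28 members (46.4%, 27.5 to 66.1) and in 42 of 120 peaks of the rest (35%, 26.5 to 44.2). The peak at chr6:26223675-26224856 stood furthest up, above 97.7% of list peaks of its width, and that at chr6:27774652-27776175 furthest down, above 8.3%. The interval of this ratio included 1 for the histone groups and lay below 1 for the rest of the block. It overlapped narrowly between them, and the difference itself was not tested.

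Neighbouring members were usually several kilobases apart. The distance between centres of neighbours in the same group had a median of 10758 bp over 25 steps (quartiles 5694 and 16550 bp), against 13065 bp over 117 steps in the rest of the block (6410 and 25234 bp) and 53865 bp in the whole list. The intervals of the medians, 5794 to 15415 bp and 10206 to 15815 bp, overlapped for most of their length. Steps under 20 kb made up 20 of 25 in the histone groups (80%) and 84 of 117 in the rest (71.8%), against 28.3% in the list. Steps under 5 kb were 4 of 25 and 23 of 117 (16% and 19.7%), against 11.9% in the list.

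Close pairs were few. Peaks less than 1 kb apart occurred at 2 places, both in the first group. At one, 13 bp separated chr6:26156172-26158808 (score 556.03) from the weak peak at chr6:26158822-26159842 (95.14). At the other, 42 bp lay between chr6:26031610-26033100 (354.93) and chr6:26033143-26034488 (568.57). Gaps of this size made up 8% of those in the histone groups, 7.69% in the rest of the block and 7.78% in the list.

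Long stretches without a peak also occurred inside the groups. The longest, 53628 bp, lay in the third group between 27806677 and 27860306 and took up more of that group than its first 5 peaks span. In the first group, 46513 bp without a peak ended at 26103661, and 34012 bp ended at 26284993, the start of its last peak. The rest of the block had a longer one, of 176747 bp.

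**Figure D5:**
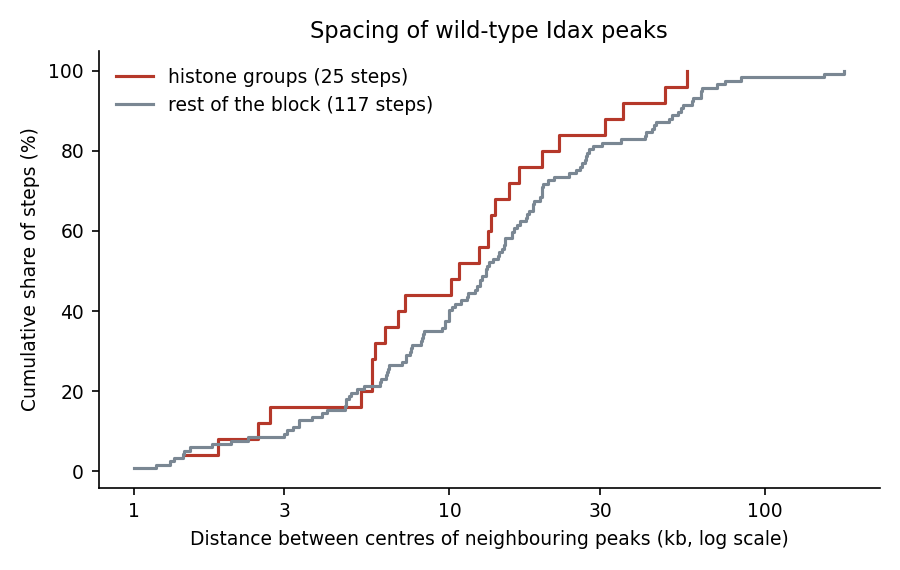
Curves give the cumulative share, in percent, of distances between the centres of neighbouring wild-type peaks, on a log axis in kb, in red for the histone groups (25 steps) and in grey for the rest of the block (117 steps). The curves cross below 5 kb, and the red one is higher from 5677.5 bp upward. The longest step is 56492.5 bp in red and 178000 bp in grey. They are furthest apart between 5 and 10 kb, and medians are 10758 and 13065 bp.

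Edges of the intervals cut through no peak, so counting peaks wholly inside them gave the same 28. Each group's outermost members began 2973 to 6256 bp inside its edges. Outside, the nearest peak to the first group was 21209 bp above its upper edge at chr6:26311209-26312409 (score 76.11), and below it the nearest was 23362 bp away at chr6:25991950-25993638 (600.88). The outermost peaks of the second group scored 159.21 and 494.03, and its neighbours lay 24677 bp below at chr6:27064411-27065323 (111.42) and 5507 bp above at chr6:27125507-27126380 (102.66). For the third, a peak at chr6:27870077-27871386 (191.41) missed the upper edge by 77 bp, and 9417 bp below the lower edge lay chr6:27758916-27760583 (365.11).

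The DNA-binding mutant had 0 peaks in the histone groups, 0 in the block and 0 on chromosome 6, against 28, 148 and 1023 for the wild-type protein. A mutant peak thus overlapped 0 of the 28 members, against 0.0585% of the whole wild-type list. A count of 0 allows a mutant density of up to 7.44 peaks per Mb in the histone groups (3 counts, counting error only). With 38 peaks genome-wide the mutant list would place 0.0051 peaks there at its own mean density, which is far under 1 peak.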

How the data were processed

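ChIP-seq peaks of HEK293T lines were taken from 2 lists, one for Myc-IdaxDBM and one for Myc-Idax, each over the empty-vector cells per the labels' design text. Tools listed, per the submitters' processing notes, are Bowtie version 0.12.7 and MACS version 1.4.1, with the build hg19. The deposited lists have no header and hold 5 columns, the last of which is the authors' score of each peak. How replicates entered the calls, and how reads that match several near-identical histone genes were placed, was not stated in these sources. Read depth is unknown.

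Starts were made 1-based. Densities have exact Poisson 95% intervals and ratios of densities exact conditional intervals. Shares have exact Clopper-Pearson intervals and medians order-statistic intervals. Those of densities, ratios and shares cover counting error only, and those of medians cover the spread among peaks of 1 list. All of them treat neighbouring peaks as independent. Peaks of like width are those within 10% of a peak's width. No p-value was computed, since each condition had 1 list. Named peaks were the 10 strongest members, the first and last of each group, the narrowest and widest, pairs under 1 kb apart and the peaks at the edges, with the 3 weakest members and those furthest from like-width peaks added after their values were seen. Members, lists and the rule were chosen with earlier results of these data known. The motif search, the bins and the windows were added later. Promoter windows were RefSeq's first entry per gene. The assignment of peaks to groups was tested on simulated peaks, and the interval of the density ratio on simulated counts. The interval of the median was tested on scores drawn at random from the wild-type list. Other calculations were not tested in this way. Software was SciPy 1.17.1, pandas 2.3.3 and numpy 2.4.6 under Python 3.11.15, with matplotlib 3.10.9 for plots.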

Additional observations from a re-analysis of the deposited data

How the results depend on the processing

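No paired analysis was possible because the peak lists carry no replicate numbers, and with 1 list per protein no replicate could be left out. Of 34 alternatives, 31 kept the direction and stayed within the main value's interval. Some of these could not differ, since no peak crosses an edge and the mutant list has 0 peaks on chromosome 6. For spacing, width and score, the difference had to keep its sign and the histone median to stay within its own main interval. Whether the difference kept its size was not part of that count. The density ratio ran from 1.45 without the second group to 1.97 against the 250 kb flanks. It was 13.3 against chromosome 6 without the block, which is a different and sparser comparison. The share of members with a score of 100 or more was 100% without the first group, a setting chosen after seeing the data, since all 3 members below 100 lie there. The median CpG ratio of histone promoters was 0.03 above that of the other genes of the stretch, whereas the median CpG count was lower, a difference of -8.5, and histone windows also held less C and G. The difference in median score was 275 overall and 158 without the first group. The unknown depth limits how many weak peaks could be called in either list.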
